A study of Mus musculus with 5 samples.

Results

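The DNA replication genes of mouse embryonic stem cells were compared between wild-type (WT) cells and cells that carry a Trip12 mutation on both alleles, labelled Trip12 mut/mut. The set was given as 43 genes by name, and 42 of them were measured among 18193 genes; Chaf1a was not analysed here. A member was read through the probe sets that the platform annotation gives its symbol alone, 96 over all members, and each gene was taken from the one with the highest mean over the 5 arrays. The measured members were 15 licensing genes, 5 genes of helicase activation, 8 polymerase genes, 10 genes of the sliding clamp, its loader, single-strand binding and Okazaki fragment joining, 3 nucleotide supply genes and 1 chromatin assembly gene.

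Chromosomes are copied in S phase. Before it, the origin recognition complex (ORC), Cdc6 and Cdt1 load the ring of Mcm2 to Mcm7 onto origins, a step called licensing, which geminin (Gmnn) blocks once replication has begun. Cdc45 and the GINS complex then turn the ring into an active helicase, polymerases alpha, delta and epsilon copy the strands, and the clamp PCNA, loaded by replication factor C, holds them on the template. Embryonic stem cells cycle fast and spend much of their time in S phase, and E2F transcription factors control many of these genes.

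The 5 samples, 2 of WT and 3 of Trip12 mut/mut cells, were each hybridised to an Affymetrix array and are called biological replicates. All were E14 embryonic stem cells grown on mouse embryo fibroblast feeder cells with serum replacement, a little fetal bovine serum and leukaemia inhibitory factor. Trip12 encodes a HECT-type ubiquitin ligase; what the mutation is, how many clones carried it, and whether feeder cells were removed before RNA extraction are points not given in the sources used here. Values are log2 RMA values, in which a difference of 1 is a doubling of signal, and they set no probe set's level against another's.

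The array labelled Trip12 mut/mut replicate 1 stood with the WT arrays. Trip12 itself read 10.17 and 10.25 on the WT arrays, 10.18 on the array labelled replicate 1, 12.09 on replicate 2 and 12.57 on replicate 3. Over all 45037 probe sets, 0 differed by more than 2-fold between the array labelled replicate 1 and either WT array, whereas replicate 2 differed from them at 475 and 545 and replicate 3 at 293 and 297. The counts and medians over lists are therefore given over all 5 arrays as labelled and also with that array left out, and single genes by their value on each array.

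Most DNA replication genes read slightly lower on replicates 2 and 3 than on the WT arrays. Over all 5 arrays the difference of group means was negative for 39 of the 42 members, against 43.7% of all genes, and the median difference was -0.17, with a range from -0.43 to 0.13, where the median over all genes was 0.02. In limma over 18193 genes, 0 members and 0% of all genes passed an adjusted p of 0.05, and 0 members had an unadjusted p under 0.05, where 0.511% of all genes did as lower; the smallest adjusted p of a member was 0.748. All 3 mutant arrays lay below both WT arrays for 9 members, against 6.29% of all genes, and above both for 0 members, against 5.73%. The members were read on the same arrays and are not independent, so these counts are a description with no test. In bulk RNA, fewer stem cells among the feeder cells and less RNA per stem cell cannot be told apart.

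Without the array labelled replicate 1, and with genes removed that did not reach the median signal on at least 2 arrays, all 42 members remained among 11626 genes tested. Orc5, Gins1 and Chaf1b then passed as lower and 0 members passed as higher, beside 1.34% of all genes lower and 3.29% higher, 4.64% in all. An unadjusted p under 0.05 was reached by 14 members, all lower, against 8.98% of the genes as lower. The median member difference was -0.25, and over all genes tested there it was 0.05. Both mutant arrays lay below both WT arrays for 26 members, against 22.1% of those genes, and above both for 0, against 35.2%. That array was set aside for its values and both comparisons share the other arrays, so this is not independent evidence. With dim genes kept, 0 members passed, the adjusted p being 0.0785, 0.0815 and 0.0785 for Orc5, Gins1 and Chaf1b, and with array weights or with a WT array left out 0 passed either.

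Fibroblast markers, which the feeder cells would carry, read higher on the arrays where the replication genes read lower. Of 25 measured fibroblast markers 22 had a positive difference, with a median of 0.35 over 5 arrays and 0.53 with the array labelled replicate 1 left out. Their mean was 10.35 on each WT array and 10.33 on the array labelled replicate 1, against 10.75 on replicate 2 and 10.78 on replicate 3, and the collagen genes Col1a2 and Col3a1 were bright in every group. In the latter comparison 7 fibroblast markers rose and 1, Cnn1, fell, beside 3.29% of all genes higher and 1.34% lower, and 0 of them passed with dim genes kept. The mean of 17 embryonic stem cell markers was 10.83 and 10.84 on the WT arrays, 10.83 on the array labelled replicate 1, 10.59 on replicate 2 and 10.73 on replicate 3. By gene the fall was not general. On replicate 2, 12 of the 17 lay below the WT mean, at a median of -0.13 from it. On replicate 3 this held for 8, and the median was 0.02. Of these 17, 10 had a negative and 7 a positive difference, with a median of -0.07 over 5 arrays and -0.10 with the array labelled replicate 1 left out. There Dppa3 fell by 2.103 (limma adjusted p = 0.0243), Lin28a by 0.97 (adjusted p = 0.0422) and Utf1 by 0.80 (adjusted p = 0.0422), calls that were also lost with dim genes kept. Others did not pass: Pou5f1, a core pluripotency factor, read between 12.25 and 12.48 on the 5 arrays, and Tbx3 and Esrrb differed by 0.68 and 0.57. The mean of 10 primitive endoderm markers lay between 6.02 and 6.08 on every array. Single markers differed by -0.50 to 0.39 over 5 arrays, and 5 of the 10 had a WT mean under the median signal. The part of the feeder cells in the lower replication genes was not tested.

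**Figure D1:**
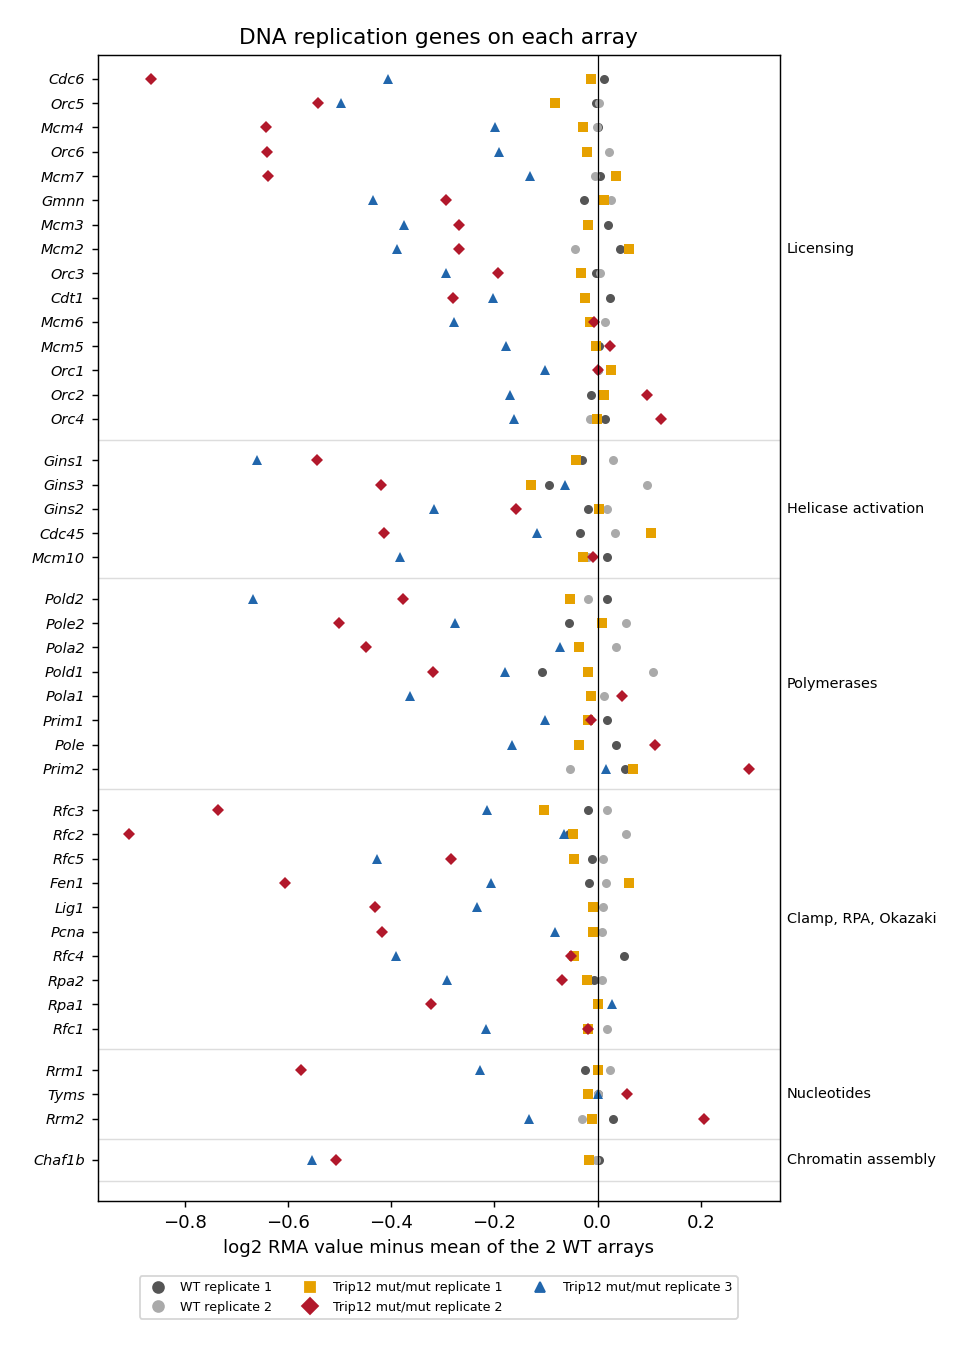
Each row is 1 of the 42 measured DNA replication genes and each point is 1 array, plotted as its log2 RMA value minus the mean of the 2 WT arrays. The array labelled Trip12 mut/mut replicate 1 lies among the WT arrays, whereas replicates 2 and 3 lie mostly to the left, at medians of -0.29 and -0.21, and often far from each other.

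Replicates 2 and 3 often read differently for the same member. The median member difference from the WT mean was -0.02 on the array labelled replicate 1, -0.29 on replicate 2 and -0.21 on replicate 3. Over the 11626 brighter genes these medians were -0.01, 0.06 and 0.01. Replicate 3 lay below both WT arrays for 38 of 42 members and above both for 1, where 37.4% and 46.3% of the brighter genes did so. Replicate 2 lay below for 28 members and above for 8, against 34.0% and 53.4% of the brighter genes. By the probe sets used, 6 members had replicate 2 within the WT values and replicate 3 below. These were Mcm6, Orc1, Mcm10, Prim1, Rfc1 and Rfc4, or 14.3% of the members against 5.63% of the brighter genes. By the same probe sets, another 6 had replicate 2 above the WT values and replicate 3 below. These were Mcm5, Orc2, Orc4, Pola1, Pole and Rrm2, also 14.3%, against 9.75%. Replicates 2 and 3 differed from each other by more than 0.2 for 26 members, or 61.9%, against 49.3% of the brighter genes. The median absolute difference between the WT arrays over the members was 0.04, and between replicates 2 and 3 it was 0.27. Of 28 genes described with their values on every array, members and further genes together, 22 had a difference over 1.5 times smaller, or turned, when replicate 2 was left out, and 3 when replicate 3 was; Orc5, Gins1, Gins2, Pold2, Rfc5 and Chaf1b were the 6 whose difference moved by less without replicate 2.

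**Figure D2:**
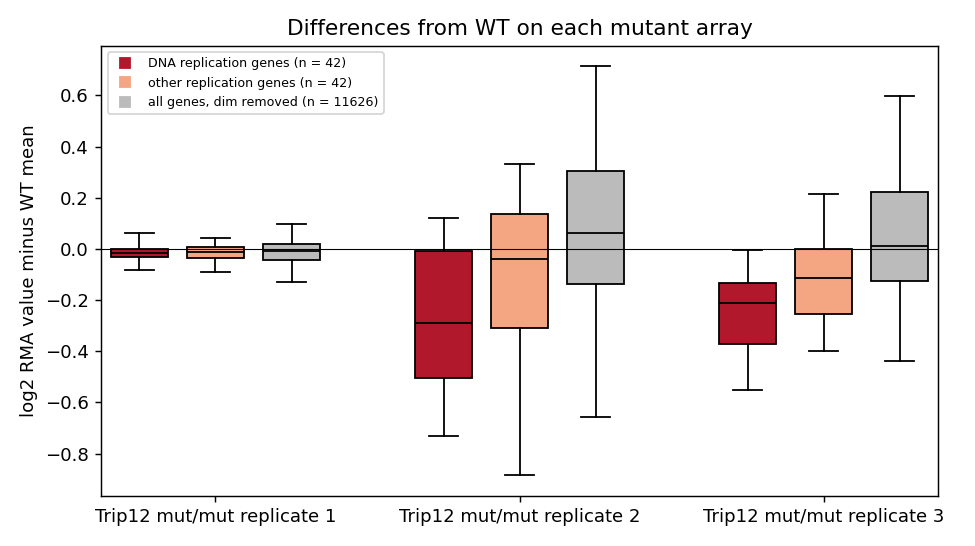
Boxes show the differences from the WT mean on each mutant array for the 42 DNA replication genes, 42 other replication genes and 11626 genes with dim genes removed; the line is the median, the box the middle quartiles and the whiskers the 5th and 95th percentiles. On replicate 3 the box of the DNA replication genes, from -0.37 to -0.13, lies below 0, and on replicate 2 it is wider, from -0.51 to -0.01.

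Some members share letters before their start sites, which the choice of members did not use. RefSeq promoter windows (GRCm38.p6) matched 35 of the 42 members; Mcm4, Gmnn, Gins1, Gins2, Prim2, Pole and Rfc2 had none. The 250 bases before the start were searched on both strands for the E2F-type letters TTTCCCGC, TTTCGCGC, TTTGCCGC and TTTGGCGC, in 1 window a gene. At least 1 match was found in 9 of 35 members, or 25.7%, against 1.91% of 27025 genes with a window and 2.8% of the 14452 of these on the array. The letters CCAAT, on either strand, were in 57.1% of the members and in 34.5% of all windows. The 9 were Mcm5, Mcm6, Mcm7, Orc1, Orc3, Cdc6, Gins3, Pola1 and Rfc3. A match is a description of letters and not a bound site.

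The sequences of 6 members are shown to set the matches beside the array values of the probe sets used: Mcm5 and Mcm6 with overlapping matches and little change on replicate 2 (another probe set of Mcm6 was at -0.81 there), Orc3 and Rfc3 with 1 match and all mutant arrays below WT, and Orc5 and Chaf1b, which passed the test above, with none. Each runs 5′ to 3′ on the gene's strand and stops where the annotated gene begins, and capitals mark the E2F-type letters. Positions count back from the start site of the window.
Mcm5, chr8:75109259-75109467, plus strand: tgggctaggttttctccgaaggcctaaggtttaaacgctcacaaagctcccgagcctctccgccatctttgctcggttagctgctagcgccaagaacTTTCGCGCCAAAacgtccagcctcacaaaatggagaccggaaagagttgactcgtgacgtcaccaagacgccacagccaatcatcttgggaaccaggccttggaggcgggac
Mcm6, chr1:128359706-128359955, minus strand: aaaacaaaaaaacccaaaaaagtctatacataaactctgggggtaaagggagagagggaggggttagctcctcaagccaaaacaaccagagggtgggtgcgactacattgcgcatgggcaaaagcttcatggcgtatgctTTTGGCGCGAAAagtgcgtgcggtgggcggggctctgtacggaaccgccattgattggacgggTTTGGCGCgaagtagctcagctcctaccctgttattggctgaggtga
Orc3, chr4:34614964-34615192, minus strand: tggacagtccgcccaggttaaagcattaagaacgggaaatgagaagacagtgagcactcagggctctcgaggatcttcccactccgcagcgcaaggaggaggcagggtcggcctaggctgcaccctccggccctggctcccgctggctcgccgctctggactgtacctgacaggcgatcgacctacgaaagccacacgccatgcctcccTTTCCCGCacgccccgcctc
Rfc3, chr5:151651209-151651458, minus strand: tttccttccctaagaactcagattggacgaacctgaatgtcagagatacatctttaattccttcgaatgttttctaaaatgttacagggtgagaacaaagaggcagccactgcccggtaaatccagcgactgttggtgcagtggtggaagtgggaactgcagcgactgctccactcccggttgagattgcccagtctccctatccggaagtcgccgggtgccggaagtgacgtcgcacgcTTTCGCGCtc
Orc5, chr5:22550339-22550588, minus strand: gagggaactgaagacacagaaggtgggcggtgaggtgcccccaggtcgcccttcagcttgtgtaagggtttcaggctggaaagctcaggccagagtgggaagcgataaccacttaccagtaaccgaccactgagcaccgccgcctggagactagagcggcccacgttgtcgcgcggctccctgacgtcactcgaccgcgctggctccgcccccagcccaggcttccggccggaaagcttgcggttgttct
Chaf1b, chr16:93883651-93883899, plus strand: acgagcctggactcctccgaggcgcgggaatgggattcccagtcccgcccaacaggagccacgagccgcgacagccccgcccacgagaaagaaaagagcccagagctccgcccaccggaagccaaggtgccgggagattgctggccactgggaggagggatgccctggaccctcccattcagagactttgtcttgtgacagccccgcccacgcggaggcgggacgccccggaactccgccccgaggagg

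In Mcm5 the matches began at -153 on the plus strand and at -149 on the minus strand and shared letters, and in Mcm6 those at -110 and -106 did the same, with a further match at -47. The match of Orc3 began at -41 and that of Rfc3 at -10. Members with a match had a median difference over 5 arrays of -0.17, and the 26 without one also of -0.17. On replicate 2 the medians were -0.19 and -0.30, and on replicate 3 they were -0.22 and -0.21.

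Among the licensing genes all 15 had a negative difference over 5 arrays, with a median of -0.20, or -0.32 with the array labelled replicate 1 left out. Cdc6, the ATPase that with ORC loads the Mcm ring, read 9.78 and 9.75 on the WT arrays, 9.75 on the array labelled replicate 1, 8.90 on replicate 2 and 9.36 on replicate 3. Replicates 2 and 3 were at 0.548-fold and 0.755-fold of the WT mean, so both lay below WT and apart from each other. The difference over 5 arrays was -0.43 (SE 0.27), the largest in size among the 42 members, and with the array labelled replicate 1 left out it was -0.64 (SE 0.18, limma adjusted p = 0.116).

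Orc5, a subunit of ORC, read 9.55 and 9.56 on the WT arrays, 9.47 on the array labelled replicate 1, 9.01 on replicate 2 and 9.06 on replicate 3. All 3 mutant arrays lay below WT, and replicates 2 and 3 agreed to within 0.05. Orc5 was lower by 1.43-fold without the array labelled replicate 1 (log2 difference -0.52, SE 0.07, limma adjusted p = 0.0470), and over 5 arrays the difference was -0.37 (SE 0.16, adjusted p = 0.748). Orc6, the smallest ORC subunit, read 10.43 and 10.47 on the WT arrays, 10.43 on the array labelled replicate 1, 9.81 on replicate 2 and 10.25 on replicate 3, so its lowest value by far was on replicate 2. Of the other ORC genes, Orc3 had all 3 mutant arrays below WT at a difference of -0.17, whereas Orc1, an ATPase subunit, Orc2 and Orc4 differed by -0.03, -0.02 and -0.01. This contrast depended on the probe set. By other probe sets above the median signal, Orc3 differed by 0.06 and Orc1 by -0.24. Those of Orc2 differed by -0.18 and -0.04, and those of Orc4 by -0.02 each.

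The 6 genes of the Mcm ring all had negative differences, with a median of -0.21, or -0.32 with the array labelled replicate 1 left out. Mcm4 read 12.07 on both WT arrays, 12.04 on the array labelled replicate 1, 11.43 on replicate 2 and 11.87 on replicate 3. Replicate 2 was at 0.641-fold of WT and replicate 3 at 0.871-fold, and all 3 mutant arrays lay below WT. Mcm7 had the same order, with 12.24 on replicate 2 and 12.75 on replicate 3 against 12.88 and 12.87 in WT. Mcm2 and Mcm3 went the other way, with replicate 3 the lower of the pair, at differences from WT of -0.39 and -0.37 against -0.27 for each on replicate 2. This order depended on the probe set. By another probe set Mcm2 was at -0.68 on replicate 2 and -0.36 on replicate 3, and Mcm4 at -0.39 and -0.45. The other probe sets of Mcm3 and of Mcm7 went both ways. By the probe sets used, Mcm5 and Mcm6 were near WT on replicate 2, at 0.02 and -0.01, and at -0.18 and -0.28 on replicate 3. With the array labelled replicate 1 left out 0 of the 6 passed, and the smallest limma adjusted p was 0.0905, for Mcm3. Cdt1, the loader that brings the ring to origins, differed by -0.17 over 5 arrays and geminin, its inhibitor, by -0.24, and both lay below WT on replicates 2 and 3.

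All 5 genes of helicase activation had negative differences, with a median of -0.16 over 5 arrays and -0.24 with the array labelled replicate 1 left out. Gins1, a GINS subunit, read 10.08 and 10.14 on the WT arrays, 10.07 on the array labelled replicate 1, 9.57 on replicate 2 and 9.45 on replicate 3. The 3 mutant arrays lay below both WT arrays, the array labelled replicate 1 by a margin smaller than the gap between the WT arrays. Gins1 was lower by 1.52-fold without that array (log2 difference -0.60, SE 0.08, limma adjusted p = 0.0476), and by -0.42 (SE 0.21, adjusted p = 0.748) over 5 arrays.

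The other GINS genes measured had smaller differences. Gins2 read 9.57 and 9.61 on the WT arrays, 9.60 on the array labelled replicate 1, 9.43 on replicate 2 and 9.28 on replicate 3, so replicates 2 and 3 were 0.897-fold and 0.803-fold of WT. Gins3 read 7.37 and 7.56 on the WT arrays, 7.34 on the array labelled replicate 1, 7.04 on replicate 2 and 7.40 on replicate 3. Its WT arrays lay well apart, with replicate 3 between them. Cdc45, which binds GINS and the Mcm ring, read 8.40 and 8.46 on the WT arrays, 8.53 on the array labelled replicate 1, 8.02 on replicate 2 and 8.31 on replicate 3. Mcm10, which helps start the helicase, was near WT on replicate 2 and lower on replicate 3, at 10.17 and 9.80 against 10.20 and 10.16.

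Of the 8 polymerase genes 7 had a negative difference and the median was -0.14 over 5 arrays and -0.20 with the array labelled replicate 1 left out. Pold2, the small subunit of polymerase delta, read 10.19 and 10.16 on the WT arrays, 10.12 on the array labelled replicate 1, 9.80 on replicate 2 and 9.51 on replicate 3. All 3 mutant arrays lay below WT, with replicate 3 at 0.63-fold and replicate 2 at 0.77-fold. Its difference was -0.37 (SE 0.19) over 5 arrays and -0.52 (SE 0.12, limma adjusted p = 0.0891) once the array labelled replicate 1 was left out. Pold1, the catalytic subunit of the same polymerase, read 9.91 and 10.13 on the WT arrays, 10.003 on the array labelled replicate 1, 9.70 on replicate 2 and 9.84 on replicate 3. The WT arrays of Pold1 were 0.22 apart, the widest WT gap among the members.

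Pole2, an accessory subunit of polymerase epsilon, read 9.78 and 9.89 on the WT arrays, 9.85 on the array labelled replicate 1, 9.33 on replicate 2 and 9.56 on replicate 3. Pola2, the regulatory subunit of polymerase alpha, read 9.04 and 9.11 on the WT arrays, 9.04 on the array labelled replicate 1, 8.63 on replicate 2 and 9.004 on replicate 3. Both genes had replicates 2 and 3 below WT. The catalytic subunits Pola1 and Pole were above both WT arrays on replicate 2, by 0.05 and 0.11 over the WT mean, and below them on replicate 3, by -0.36 and -0.17. Of the primase genes, Prim1 differed by -0.04 and Prim2 by 0.13, the highest difference of any member, and Prim2 read 9.05 on replicate 2 against 8.81 and 8.70 in WT.

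All 10 genes of the clamp, its loader, single-strand binding and Okazaki fragment joining had negative differences, with a median of -0.20 over 5 arrays and -0.29 with the array labelled replicate 1 left out. Pcna, the sliding clamp, read 13.48 and 13.50 on the WT arrays, 13.48 on the array labelled replicate 1, 13.08 on replicate 2 and 13.41 on replicate 3. The 5 genes of replication factor C, which opens the clamp and loads it, had medians of -0.25 and -0.36. Rfc3 read 8.89 and 8.93 on the WT arrays, 8.81 on the array labelled replicate 1, 8.17 on replicate 2 and 8.69 on replicate 3, so that all mutant arrays lay below WT and replicate 2, at 0.601-fold, was far the lowest.

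By the probe sets used, Rfc2 had the widest gap between replicates 2 and 3 of any member, 0.84. It read 10.07 and 10.18 on the WT arrays, 10.07 on the array labelled replicate 1, 9.21 on replicate 2 and 10.06 on replicate 3, so replicate 2 alone, at 0.532-fold of WT, was far below WT. Its difference was -0.34 (SE 0.31) over 5 arrays and -0.0568 with replicate 2 left out. The other probe sets of Rfc2, dimmer but above the median signal, did not show this gap. They were at -0.20 and -0.26 from WT on replicate 2 and at -0.15 and -0.16 on replicate 3. Rfc5 read 10.89 and 10.91 on the WT arrays, 10.85 on the array labelled replicate 1, 10.61 on replicate 2 and 10.47 on replicate 3. All its mutant arrays lay below WT, and with the array labelled replicate 1 left out it was -0.36 (SE 0.08, limma adjusted p = 0.0885).

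Fen1, the nuclease that trims Okazaki fragments, read 11.33 and 11.37 on the WT arrays, 11.41 on the array labelled replicate 1, 10.74 on replicate 2 and 11.14 on replicate 3. Lig1, the ligase that seals them, differed by -0.22 and lay below WT on replicates 2 and 3. The single-strand binding genes Rpa1 and Rpa2 differed by -0.10 and -0.13. Rpa1 was lower on replicate 2, at -0.32 from WT, and 0.03 above WT on replicate 3, whereas Rpa2 was at -0.07 and -0.29.

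**Figure D3:**
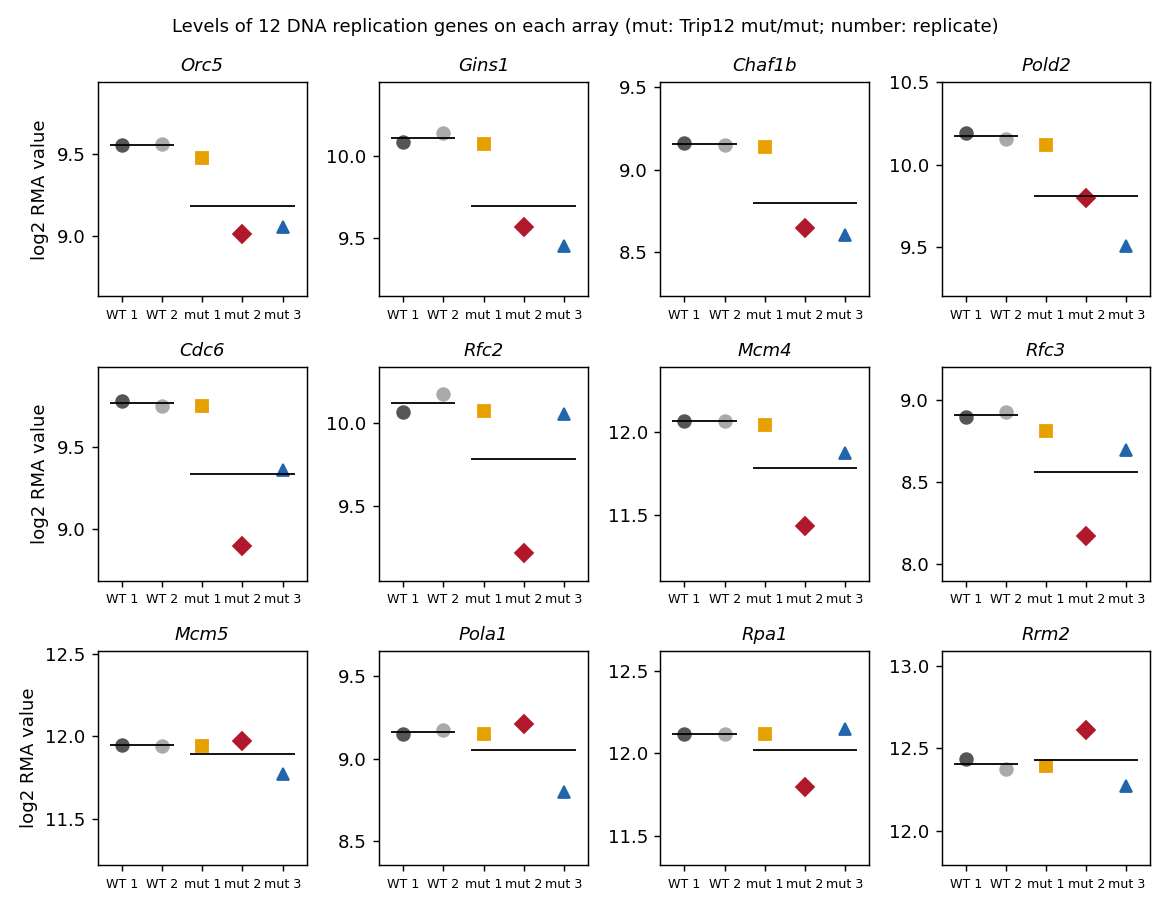
Log2 RMA values of 12 DNA replication genes on each array, with a line at each group's mean; every panel spans the same range of values. Orc5, Gins1 and Chaf1b are low on replicates 2 and 3 alike, Cdc6, Rfc2, Mcm4 and Rfc3 are lowest on replicate 2, and Mcm5, Pola1 and Rrm2 are below WT on replicate 3 only.

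The 3 nucleotide supply genes had differences of both signs. Rrm1, the large subunit of ribonucleotide reductase, read 10.91 and 10.96 on the WT arrays, 10.94 on the array labelled replicate 1, 10.36 on replicate 2 and 10.71 on replicate 3, a difference of -0.27 (SE 0.19). Rrm2, the small subunit, whose level normally follows S phase, read 12.43 and 12.38 on the WT arrays, 12.39 on the array labelled replicate 1, 12.61 on replicate 2 and 12.27 on replicate 3. Its difference of 0.02 (SE 0.12) turned negative in 5 of the alternatives given in the closing section, so no direction can be given. Tyms, thymidylate synthase, read 5.78 on both WT arrays and on replicate 3, 5.76 on the array labelled replicate 1 and 5.84 on replicate 2. Its signal was close to the median of all probe sets, 5.52.

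Chaf1b, a subunit of the chromatin assembly factor that places histones on new DNA, read 9.16 and 9.15 on the WT arrays, 9.14 on the array labelled replicate 1, 8.65 on replicate 2 and 8.60 on replicate 3. The array labelled replicate 1 lay just below WT and replicates 2 and 3 lay far below it and 0.05 apart. Chaf1b was lower by 1.45-fold without the array labelled replicate 1, with a log2 difference of -0.53 (SE 0.07, limma adjusted p = 0.0467). Over 5 arrays the difference was -0.36 (SE 0.19, adjusted p = 0.748).

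The probe set chosen for a gene changed how much lower it read on replicate 2. The members had 54 other probe sets, of which 36, in 26 genes, had a WT mean above the median of all values, and 31 of these 36 had a 5-array difference of the same sign as the probe set used. Probe sets of the opposite sign belonged to Gins3, Orc3, Rpa1 and Rrm2. On replicate 2 an other probe set differed from the one used by a median of 0.25 in its distance from WT, against 0.08 on replicate 3 and 0.04 on the array labelled replicate 1. The same medians over the 8040 other probe sets of all genes were 0.25, 0.11 and 0.05, so this spread was not limited to replication genes.

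Of the 14 members whose used probe set was not below both WT arrays on replicate 2, 10 had another probe set above the median signal, and in 6 of these 10 genes such a probe set did lie below both WT arrays there. By probe set this was 7 of 15. Of the 8040 other probe sets of all genes 36.3% lay below, but their genes were not chosen by the probe set used, so the shares are unlike. The reverse also occurred on replicate 2. Fen1 was at -0.61 there by the probe set used and 0.02 by another, Rfc3 at -0.74 and -0.02, and Rpa1 at -0.32 and 0.11. For Mcm6 the probe set used was at -0.01 from WT on replicate 2 and -0.28 on replicate 3, and a further one was at -0.81 and -0.46. For Rfc4 the values were -0.05 and -0.39 by the probe set used and -0.84 and -0.35 by another. For Rrm2 they were 0.21 and -0.13 by the probe set used, 0.09 and -0.12 by a second and -0.74 and -0.14 by a further one. Rpa2, which was just below WT on replicate 2, was at -1.08 there by its other probe set. Other probe sets also put Orc1 at -0.52 and Rfc1 at -0.34 and -0.92 on replicate 2. In contrast, both further probe sets of Orc4 above the median signal were above WT on replicate 2, at 0.15 and 0.22. The position of each probe set in its transcript was not analysed here, and its part in this was not tested. When all probe sets of each gene were averaged, Mcm2, Mcm6, Orc5, Gins1 and Rfc4 passed as lower with the array labelled replicate 1 left out, and Chaf1b did not (limma adjusted p = 0.0905). More genes passed in general with this averaging: 1461 of all genes, 453 of them as lower, against 539 and 156 with the probe set of highest mean.

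**Figure D4:**
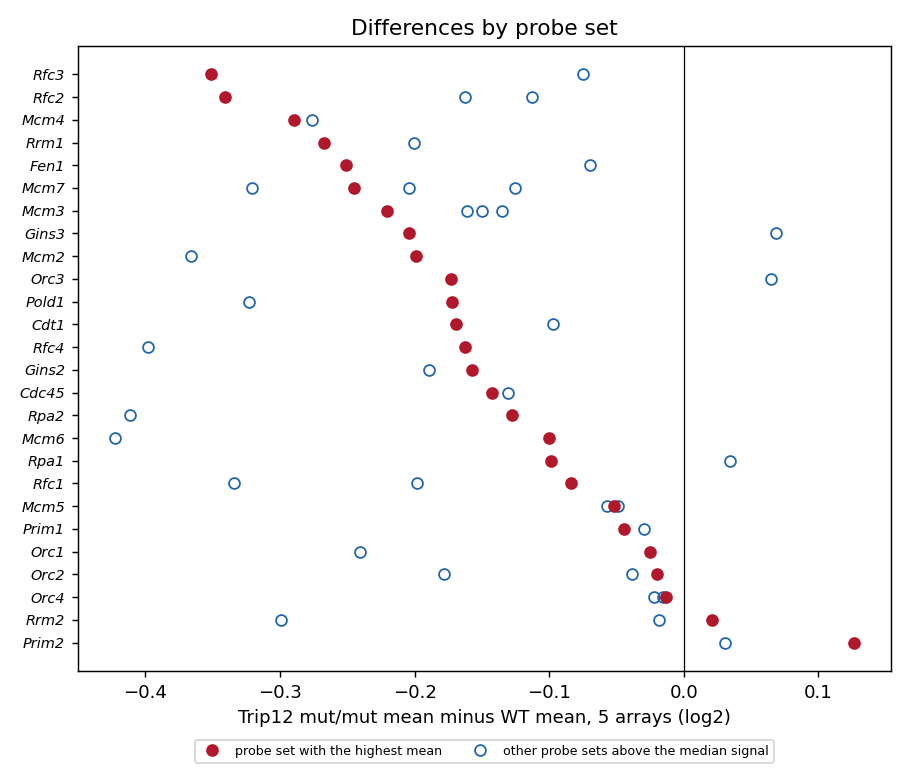
Difference of the Trip12 mut/mut mean from the WT mean over 5 arrays for the 26 members with more than 1 probe set above the median signal; filled points are the probe set used and open points the others. Most open points lie left of 0. In several genes, among them Mcm6, Rpa2, Rfc4, Orc1, Rfc1 and Rrm2, an open point lies further left than the filled point. In others, such as Fen1 and Rfc3, it lies further right.

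Other genes of replication were read from a list of 43 genes, of which 42 were measured. Of these 27 had a negative difference over 5 arrays, against 43.7% of all genes, with a median of -0.05 (-0.06 with the array labelled replicate 1 left out). In limma 0 passed, either over 5 arrays or without the array labelled replicate 1. The smallest limma adjusted p in the latter fit was 0.05615, for Pold4, a subunit of polymerase delta, which was higher by 0.47. All 3 mutant arrays lay below WT for 7 genes of this list and above for 0, against 6.29% and 5.73% of all genes. Replicates 2 and 3 both lay below WT for 18 and above for 3, against 22.1% and 35.2% of the brighter genes. Dscc1, a subunit of an alternative clamp loader, read 8.50 and 8.52 on the WT arrays, 8.41 on the array labelled replicate 1, 7.42 on replicate 2 and 7.93 on replicate 3, at a difference of -0.58 (SE 0.31). Dut, which removes dUTP from the nucleotide pool, read 11.68 and 11.73 on the WT arrays, 11.71 on the array labelled replicate 1, 10.67 on replicate 2 and 11.22 on replicate 3. Both genes were lowest on replicate 2 and also below WT on replicate 3. Rnaseh2b, a subunit of a nuclease that removes ribonucleotides from DNA, read 9.95 and 10.06 on the WT arrays, 9.95 on the array labelled replicate 1, 9.11 on replicate 2 and 9.80 on replicate 3, at a difference of -0.38. Rpa3, the smallest single-strand binding subunit, read 10.27 and 10.24 on the WT arrays, 10.24 on the array labelled replicate 1, 9.48 on replicate 2 and 10.04 on replicate 3, at a difference of -0.34. All 4 genes had over 1.5 times smaller differences without replicate 2, at -0.33 for Dscc1, -0.23 for Dut, -0.13 for Rnaseh2b and -0.12 for Rpa3.

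Regulators of entry into S phase had differences of both signs, more of them negative. Of 22 E2F, retinoblastoma, cyclin and related genes, 16 had a negative difference, against 43.7% of all genes. Their median was -0.11, or -0.14 with the array labelled replicate 1 left out. Replicates 2 and 3 both lay below WT for 12 of them and above for 2, against 22.1% and 35.2% of the brighter genes. Ccnd2, which encodes cyclin D2, read 10.94 and 10.93 on the WT arrays, 10.90 on the array labelled replicate 1, 11.92 on replicate 2 and 11.67 on replicate 3, and was the 1 gene of this list to pass without the array labelled replicate 1 (log2 difference 0.86, SE 0.11, limma adjusted p = 0.0476); with dim genes kept its adjusted p was 0.0834. Ccnd1, which encodes cyclin D1, read 10.16 and 10.04 on the WT arrays, 10.04 on the array labelled replicate 1, 9.26 on replicate 2 and 9.59 on replicate 3. Ccnd3, for cyclin D3, read 9.90 and 9.87 on the WT arrays, 9.86 on the array labelled replicate 1, 10.13 on replicate 2 and 9.90 on replicate 3. On replicates 2 and 3 Ccnd2 thus lay above WT and Ccnd1 below, while Ccnd3 was above WT on replicate 2 only. Cdc25a, a phosphatase that activates cyclin-dependent kinases, read 10.19 and 10.20 on the WT arrays, 10.11 on the array labelled replicate 1, 9.23 on replicate 2 and 9.72 on replicate 3. Its difference was -0.51 (SE 0.28), but -0.28 with replicate 2 left out and -0.24 with the mean of probe sets. E2f7, a repressor of E2F targets, read 8.21 and 8.15 on the WT arrays, 8.18 on the array labelled replicate 1, 7.501 on replicate 2 and 7.76 on replicate 3, at a difference of -0.37 (SE 0.22), or -0.21 with replicate 2 left out. E2f1, an activator of replication genes, differed by 0.02. E2f3 differed by -0.23 over 5 arrays and was at -0.40 and -0.33 from WT on replicates 2 and 3. It did not pass without the array labelled replicate 1 (limma adjusted p = 0.0695).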

How the data were processed

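Per the submitters' processing notes, the deposited log2 values come from RMA (background correction, normalisation between arrays and 1 summary value per probe set), of a version that the sources used here do not name. RNA from E14 embryonic stem cells was measured on 1 array per sample, and precision is limited by there being only 5. Of 45101 probe sets 64 array controls were left out. Of the other 45037, 34945 had 1 gene symbol, 932 several and 9160 none. Symbols were updated by gene number for 34741 through a RefSeq table of GRCm38.p6. RMA gives no detection call, and 57.4% of all genes had exactly equal values on 2 or more arrays, as had 15 of the 42 members. In 3 members both WT arrays were equal, which leaves no spread within WT. A value shared by a WT and a mutant array does not lower the spread within a group.

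The genotype difference was fitted by lmFit and eBayes of limma 3.58.1 (R 4.3.3), with two-sided p-values adjusted by Benjamini-Hochberg over all genes at a threshold of 0.05. Differences are Trip12 mut/mut minus WT, with SEs from limma. The comparison without the array labelled replicate 1 kept genes above 5.52, the median of all values, on at least 2 of its arrays. The procedure was tested on simulated data. Per-array values are given for the 4 members of each class with the largest absolute difference and for those past the threshold, and for the 4 such genes of the other replication list and of the E2F, retinoblastoma and cyclin list; other genes were picked as examples after their values were seen. Members, lists and this second comparison were chosen with earlier results of these data known. The sources used here do not say whether replicates were separate cultures, so p-values measure the spread between these arrays, which may be technical. Same-numbered WT and mutant arrays did not deviate together (r = -0.05 and -0.08 across genes).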

Additional observations from a re-analysis of the deposited data

How the results depend on the processing

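The median member difference over 5 arrays, -0.17, stayed negative in all 12 alternatives, between -0.26 (probe set with the largest SD) and -0.11 (without Trip12 mut/mut replicate 2). Over 5 arrays 0 members and 0 genes passed in limma in any alternative, with the replicate block too, where the median was -0.15. The 9 members wholly below WT over 5 arrays became 15 with median centring and 14 with the probe set of largest SD, and lay between 10 and 26 with each array left out: 22 without WT replicate 1, 15 without WT replicate 2 and 26 without the array labelled replicate 1; fewer arrays overlap less by construction. Without the array labelled replicate 1, the 3 members that passed became 5 with the mean of probe sets, 0 with array weights and 0 with dim genes kept. Of all genes, 539 passed there, against 1000 with quantile normalisation, 1190 with median centring, 1461 with the mean of probe sets, 0 with array weights and 0 with dim genes kept. Leaving out a further array gave 0 to 18 members and 0 to 4912 genes: 0 without WT replicate 1 or 2, 11 members and 2686 genes without replicate 2, and 18 members and 4912 genes without replicate 3, where a lone mutant or WT array is assumed to vary like the other group. Leaving out a WT array raised the adjusted p of Orc5, Gins1 and Chaf1b to as much as 0.594, and Gins1 alone was lost without replicate 2 (0.0520). No paired fit was possible without the array labelled replicate 1 because no residual degrees of freedom were left. Of single genes over 5 arrays, Rrm2 turned to -0.0323 with array weights, -0.10 with the mean of probe sets, -0.30 with the probe set of largest SD, -0.0085 without WT replicate 2 and -0.0717 without replicate 2, with a range of -0.0717 to 0.0973 over the arrays left out. Tyms turned to -0.0051 with quantile normalisation, -0.0006 with median centring, -0.17 with the mean and -0.43 with the largest SD, and -0.0093 without replicate 2 (-0.0093 to 0.0287 over the arrays left out), and Pole2 to 0.14 with the largest SD, which took a dim probe set. Of 28 single genes, 22 differences shrank over 1.5 times or turned without replicate 2, and 12 with the mean of probe sets. The cause of the other changes was not tested.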
